A study of Mus musculus with 6 samples.

Results

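In all, 9 genes of mouse chromosome 6 were described, the members of the imprinted Peg10-Sgce and Mest-Copg2 clusters and their neighbours Casd1, Ppp1r9a, Pon2, Pon3 and Asb4. They were 9 of the 20624 genes of the table and 9 of its 1047 genes of chromosome 6, found by gene name. The members were chosen by measured values, since earlier results of these data, which included differences between the genotypes, were known when they were listed. Those differences are not used here. RNA was sequenced from mDCT15 cells, an established line of mouse kidney cells derived from the distal convoluted tubule, in 3 Pkd1-/- samples and 3 wild type samples. The Pkd1-/- cells were made by gene editing in mDCT15 cells, and the genotype field of their labels calls them a knockdown. The titles number the samples as biological replicates, but nothing states that they came from separate cultures or from more than 1 edited clone.

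Genomic imprinting is the expression of a gene from the copy of 1 parent, set by DNA methylation that differs between the egg and the sperm. Peg10 and Sgce share a methylated control region and are expressed from the paternal copy, as is Mest, while genes around them are expressed from the maternal copy or from both copies, depending on the tissue. RNA levels that are not separated by allele, as here, do not show which copy was read.

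The value used for every gene was the authors' mean normalized count, a mean over all 6 samples of read counts divided by the size factor of each library. It has no error, and it does not separate the genotypes, so no difference between Pkd1-/- and wild type cells was tested. The depth of each sample is unknown. With 3 samples in each genotype, the mean of either genotype can lie anywhere from 0 to 2 times the pooled mean, and this bound is the only statement on a single genotype that the value allows. Levels of different genes were compared per kb of exon, counting each base of all annotated exons of a gene once.

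The edited gene itself, Pkd1, which encodes polycystin-1, had a mean normalized count of 3175, or 182 per kb, over both genotypes. Its partner Pkd2 had a mean of 4723, or 282 per kb. The pooled mean of Pkd1 does not check the genotype labels, since it averages edited and unedited cells. Of 11 markers of the distal convoluted tubule, 6 had a row and 5 had a mean of at least 10, led by the kinase gene Wnk1 at 8468. Stk39, Wnk4, Egf and Trpm6 were at 621, 413, 48.3 and 29.6, and Klhl3 was at 5.70. Slc12a3, the sodium chloride cotransporter that defines this segment, and Pvalb, Calb1, Emx1 and Tmem52b had no row in the table analysed. The kidney epithelial markers Pax8, Cdh16 and Pax2 had means of 4905, 4680 and 2428. Of 10 markers of other nephron segments, 2 had a mean of at least 10. These were Lrp2, an endocytic receptor of the proximal tubule, at 8826 (528 per kb) and Cubn at 169 (11.3 per kb). Slc34a1, Aqp3 and Scnn1g were at 2.04, 1.95 and 0.618, and 5 had no row. Of 10 general epithelial markers, 3 reached a mean of 10, Tjp1 at 5628, Epcam at 115 and Ocln at 52.6. Cldn4, Grhl2 and Krt8 were at 4.00, 1.82 and 0.980, and Cdh1, Krt18, Krt19 and Cldn7 had no row. The label was met by the kidney epithelial markers named, and not by the defining transporter of the distal convoluted tubule or by most general epithelial markers. Lrp2, a marker of another segment, had a higher mean than any listed marker of the distal convoluted tubule. Of 6 fibroblast markers, 1 reached a mean of 10, Col1a1 at 201, while Col1a2, Col3a1, Pdgfra and Pdgfrb were at 4.48 or lower and Thy1 had no row. Of 4 blood cell markers, 1 reached a mean of 10, Cd68 at 41.9, Ptprc was at 5.36, and Adgre1 and Cd3e had no row. Of 3 endothelial markers, 0 did, with Pecam1 at 4.68. In bulk RNA, fewer cells of a type and less RNA per cell cannot be told apart.

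Levels per kb differed widely among the members. The median of the 9 members was 70.2 mean normalized counts per kb, beside a median of 28.6 over all genes of the table. Of the members, 7 lay above that median, and Peg10 and Casd1 also lay above the upper quartile of 130. That median includes noncoding genes, while all 9 members are coding genes. Among the 13862 coding genes of the table the median was 72.7 per kb and the upper quartile 189, and 4 members lay above that median and 1, Peg10, above that quartile. This set of coding genes was chosen after seeing the data. Percentiles of single members below are per kb of merged exons among all genes. Sgce, Ppp1r9a and Pon3 lay above the median of all genes but below that of coding genes, at percentiles 35.5, 47.8 and 49.2 among coding genes. Of the 9 members, 8 had a mean of at least 10, as did 13724 genes of the table (66.5%), and Asb4 did not. From high to low, the order per kb of merged exons was Peg10, Casd1, Copg2, Pon2, Pon3, Ppp1r9a, Sgce, Mest and Asb4. The order moved with the length: 3 members kept their rank with the longest transcript, 2 with the median coding transcript and 5 with merged exons without shared bases. With no error on these values, which neighbours in this order differ beyond their spread was not tested.

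**Figure D1:**
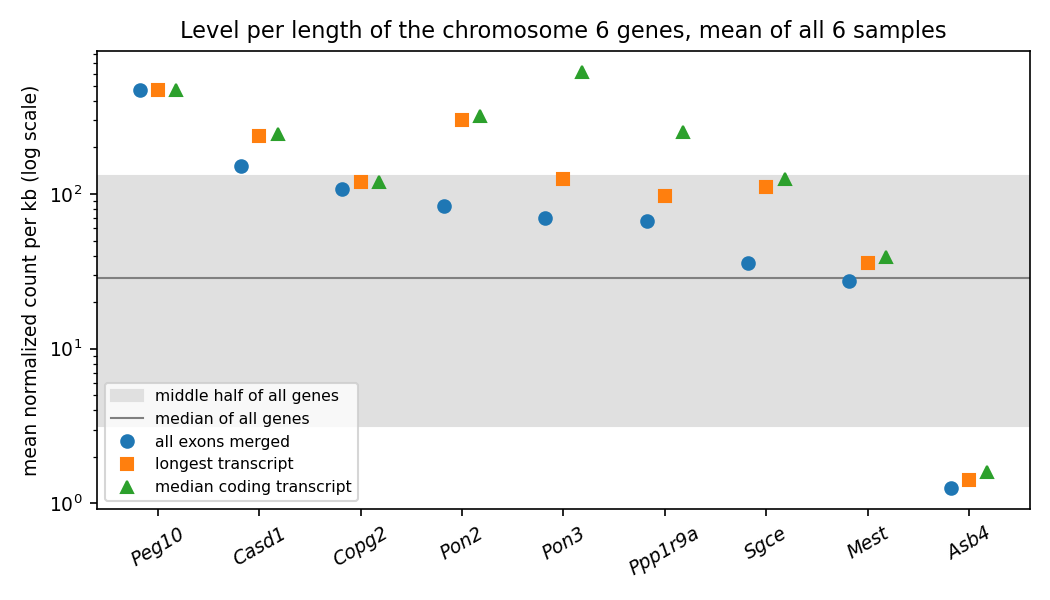
Mean normalized count per kb (log scale) of each member over all 6 samples, with the length taken from all exons merged, the longest transcript or the median coding transcript. The grey band spans the quartiles of all genes per kb of merged exons (3.14 to 130) and the line their median (28.6). Peg10 stayed between 468 and 472 under each length, Asb4 stayed lowest, and Pon3 moved most, from 70.2 to 618.

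Peg10 (ENSMUSG00000092035; GRCm39 chromosome 6, 4747306 to 4760517, plus strand) encodes a protein derived from the gag and pol genes of a retrotransposon and is needed for the placenta. Its mean normalized count was 3121, and its level of 468 per kb stood at percentile 94.2 of all genes. The chromosome 6 genes nearest to it in level per kb were Rpl38-ps2, a ribosomal protein pseudogene, at 469, M6pr, a mannose 6-phosphate receptor gene, at 467, and the actin capping gene Capg at 471. Of the 6585 words of 42 bases in its exons, 97.9% occurred once in the genome as exact matches. Reads with mismatches or across exon junctions were not checked.

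Sgce (ENSMUSG00000004631; 4672057 to 4747207, minus strand) encodes epsilon-sarcoglycan, a membrane protein of the dystrophin-associated complex. Its mean was 491 and its level per kb was 35.9, at percentile 52.8. Bid, 1700003E16Rik and Skap2 were nearest in level per kb, between 35.7 and 36.0. The annotation gives Sgce 40 transcripts, whose merged exons cover 13664 bases, while its longest transcript has 4416. Its level was 111 per kb over the longest transcript, so the choice of length bears more on Sgce than on Peg10, whose merged exons and longest transcript are both 6667 bases.

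Peg10 and Sgce start 99 bases apart and run in opposite directions. Per kb of merged exons Peg10 was 13 times Sgce, and 4.21 times per kb of the longest transcript. Pairs of coding genes of the table that start back to back within 1000 bases and do not overlap numbered 339. In these pairs the higher partner was a median of 3.67 times the lower. The Peg10-Sgce ratio stood at percentile 70.8 of these pairs with merged exons and at percentile 53.7 with the longest transcript. In the 242 pairs with both genes at 10 per kb or more, the percentiles were 91.7 and 72.7. Peg10 was the higher gene of the pair under each length, but how far the pair stood from other pairs moved with the length.

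**Figure D2:**
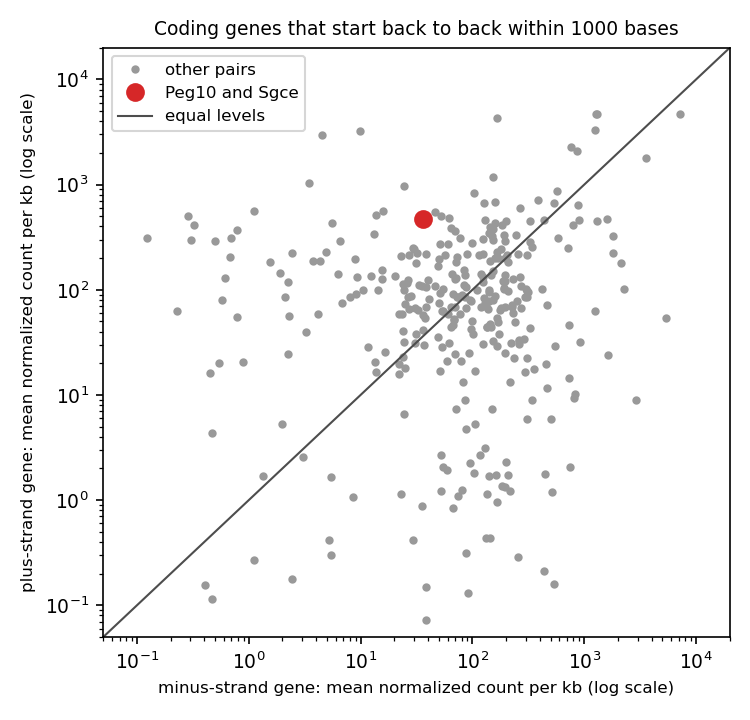
Each point is a pair of coding genes that start back to back within 1000 bases and do not overlap. The minus-strand gene is on the horizontal axis and the plus-strand gene on the vertical axis. Both are given as mean normalized count per kb of merged exons on log scales over all 6 samples. Peg10 and Sgce (red) lie at 468 and 35.9, above the line of equal levels, among 339 pairs with a median ratio of 3.67.

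Casd1 (ENSMUSG00000015189; 4600659 to 4643356, plus strand) encodes the enzyme that adds acetyl groups to sialic acids. Its mean was 978 and its level per kb was 151, at percentile 78.1. Per kb of merged exons Casd1 ranked next after Peg10 among the members, but it was the fifth with the median coding transcript and the third with the longest transcript or without shared bases. Peg10 was 3.09 times Casd1 per kb of merged exons, 1.98 times with the longest transcript and 1.92 times with the median coding transcript. Casd1 was 4.22 times Sgce under the first of these lengths, and 2.13 and 1.98 times under the others. Casp2, Etv6 and Pex5 were nearest to Casd1 in level, between 152 and 153 per kb. It shares 112 exonic bases with the noncoding gene Gm33959 on the opposite strand, which had no row.

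Ppp1r9a (ENSMUSG00000032827; 4902745 to 5165667, plus strand) encodes neurabin, an actin-binding protein that targets protein phosphatase 1. Its mean was 1010 and its level per kb was 66.4, at percentile 62.4. Hdac11, Bmt2 and Braf were nearest, between 65.9 and 67.4 per kb. The level of Ppp1r9a rose to 253 per kb when divided by the median coding transcript of 3988 bases in place of 15210 bases of merged exons.

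Pon2 and Pon3 encode lactonases of the paraoxonase family. Pon2 (ENSMUSG00000032667; 5263103 to 5298476, minus strand) had a mean of 1037 and a level of 83.6 per kb, at percentile 66.6, and 299 per kb with the longest transcript and 317 with the median coding transcript. It shares 680 exonic bases with Gm44424 on the opposite strand, which had no row. Itpr1, Tead4 and Magi1 were nearest to Pon2, between 83.4 and 84.4 per kb. Pon3 (ENSMUSG00000029759; 5220758 to 5256301, minus strand) had a mean of 534 and a level of 70.2 per kb, at percentile 63.4, and Ccdc136, Bet1 and Magohb were nearest to it, between 69.6 and 71.2. Pon2 was 1.19 times Pon3 per kb of merged exons and 2.41 times per kb of the longest transcript, but 0.513 times per kb of the median coding transcript, which is 864 bases for Pon3. The order of Pon2 and Pon3 therefore turned with the length. They shared 0 words of 42 bases, so reads within an exon of one would not match an exon of the other exactly. Pon1, the third gene of the family, which is made mainly in liver, had a mean of 0.834, so neither genotype can have exceeded 1.67. Gm44250, a transcript model of the annotation that awaits experimental support from 5216258 to 5220486 on the strand of Pon3 and just past its end, had a mean of 602 and a level of 142 per kb. It was singled out after its value was seen.

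Asb4 (ENSMUSG00000042607; 5383386 to 5433026, plus strand) encodes a substrate receptor of a ubiquitin ligase and was the lowest member under each length. Its mean was 5.28 and its level 1.25 per kb, at percentile 14.3. The mean of either genotype can have been at most 10.6. Gm43800, Gm3289 and Gm15595 were nearest in level, between 1.23 and 1.26 per kb.

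Mest (ENSMUSG00000051855; 30723546 to 30752058, plus strand), whose start lies 26 Mb from that of Peg10, encodes a protein of the alpha/beta hydrolase family. Its mean was 222 and its level per kb was 27.6, at percentile 49.6, just under the median of all genes and below the median of coding genes. Parp11, Dera and Mir6374 were nearest, between 27.2 and 27.5 per kb. Peg10 was 17 times Mest per kb of merged exons and 13.2 times per kb of the longest transcript, and 8.88 times when the exonic bases that Mest shares with Copg2 were left out of its length. Copg2 (ENSMUSG00000025607; 30741505 to 30873729, minus strand) encodes a subunit of the COPI vesicle coat and had a mean of 1201 and a level of 107 per kb, at percentile 71.4. Krcc1, Foxp1 and Igf2bp3 were nearest to Copg2, between 107 and 108 per kb.

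Mest and Copg2 run towards each other and share 3850 exonic bases on opposite strands, and 3317 words of 42 bases. The authors' counting used the default settings of its tool, which are strand-specific. The methods name the library kit but do not state the strand of the libraries, so a match was not checked. A mismatch would bear on the count of every gene in the table. For Mest and Copg2 it leaves reads from the shared bases uncertain. Mest was 0.256 times Copg2 per kb of merged exons. With the shared bases taken out of the length only, the ratio was 0.321, with levels of 52.7 for Mest and 164 for Copg2, which overstates both if the shared bases gave reads. Mest was lower than Copg2 under each length.

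An intron of Mest holds the microRNA miR-335, whose own gene had no row in the table analysed, so the level of Mest is not a level of the microRNA. Both mature forms are shown because they are a product of the Mest locus that the gene's count does not measure. They are RefSeq sequences on GRCm38.p6, with the seed (bases 2 to 8) in capitals, and 0 of the 1738 listed mature microRNAs other than themselves share either seed.

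mmu-miR-335-5p: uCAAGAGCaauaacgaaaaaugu
mmu-miR-335-3p: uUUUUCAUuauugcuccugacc

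Promoters were listed in RefSeq on GRCm38.p6 for 7 of the 9 members, as 300 bases from 250 before to 50 after the start. Entries for Peg10 and Sgce were missing. A comparison of promoter CpG content with level was void, since a promoter was listed for 77.8% of the members and for 57.6% of the genes of the table, and 80% was required of each. For Mest 3 starts were listed, for Asb4 2 and for Copg2 1, and the most CpG-rich start of each is shown. The promoters are those of the overlapping pair and of the lowest member, with each CG, the site at which mouse DNA is methylated, in capitals. The Mest sequence is on the plus strand at chr6:30737800-30738099, the Copg2 sequence on the minus strand at chr6:30896745-30897044, and the Asb4 sequence on the plus strand at chr6:5390160-5390459.

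Mest: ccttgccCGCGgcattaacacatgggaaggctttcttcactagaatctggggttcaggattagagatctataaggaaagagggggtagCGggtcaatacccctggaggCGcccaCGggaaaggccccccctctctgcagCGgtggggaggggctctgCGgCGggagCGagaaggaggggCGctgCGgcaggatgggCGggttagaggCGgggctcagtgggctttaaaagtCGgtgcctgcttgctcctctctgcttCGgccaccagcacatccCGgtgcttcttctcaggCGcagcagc
Copg2: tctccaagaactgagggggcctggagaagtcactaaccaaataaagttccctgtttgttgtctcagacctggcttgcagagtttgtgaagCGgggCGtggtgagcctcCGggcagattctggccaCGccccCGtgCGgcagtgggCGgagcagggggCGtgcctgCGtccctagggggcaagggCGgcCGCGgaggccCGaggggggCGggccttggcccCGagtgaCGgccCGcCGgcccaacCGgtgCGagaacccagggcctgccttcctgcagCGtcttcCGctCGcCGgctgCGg
Asb4: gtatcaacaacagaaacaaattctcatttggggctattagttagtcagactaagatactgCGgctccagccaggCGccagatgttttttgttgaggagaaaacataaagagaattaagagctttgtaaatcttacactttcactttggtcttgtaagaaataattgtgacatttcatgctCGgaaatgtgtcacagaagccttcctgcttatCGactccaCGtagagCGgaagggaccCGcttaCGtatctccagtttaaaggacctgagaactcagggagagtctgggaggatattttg

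The Mest sequence holds 17 CpG, the Copg2 sequence 25 and the Asb4 sequence 8, beside a median of 7 over 32851 listed promoters. The CpG-poorest listed start of Mest (chr6:30733256-30733555) holds 8, and the other start of Asb4 (chr6:5383136-5383435) holds 6. Among the members whose promoters are not shown, the most CpG-rich listed starts of Ppp1r9a, Pon2, Casd1 and Pon3 hold 48, 31, 23 and 7. The other listed starts of Ppp1r9a and Casd1 hold 10 and 5. That median is over single starts, while the most CpG-rich start of each gene was picked here, so no comparison is drawn. GGGCGG, the GC box, was searched on both strands and occurs 1 time in the Mest sequence, 3 times in that of Copg2 and 0 times in that of Asb4, and 35.7% of the listed promoters hold it. TATAAA, also on both strands, occurs 0 times in these 3 sequences and is held by 13.6% of the listed promoters. These matches are letters in a window and show neither binding nor methylation.

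Within 1000 kb of the start of a member, 28 other coding genes are annotated, of which 19 had a row and 15 (53.6%) a mean of at least 10, beside 11827 of 21770 coding genes (54.3%) of the whole annotation. The share was 7 of 16 (43.8%) within 500 kb and 33 of 56 (58.9%) within 2000 kb, and no difference from the whole annotation was tested. Around the Peg10-Sgce cluster and its neighbours the count was 4 of 10 (40%), and around Mest and Copg2 it was 11 of 18 (61.1%).

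Of the 14 listed genes around Peg10, 7 had a mean of at least 10. Calcr, the calcitonin receptor, had a mean of 1.15, and Col1a2, a collagen chain of fibroblasts, had 2.71, or 0.214 per kb, although it lies next to Casd1. Bet1, Vps50 and Sem1 were at 69.6, 62.2 and 252 per kb. Slc25a13, a mitochondrial aspartate-glutamate carrier, was at 161 per kb, Pdk4, a kinase that inhibits pyruvate dehydrogenase, at 143, and Dync1i1, a dynein chain, had a mean of 197. Dlx6 had a mean of 12.5 and Dlx5 of 2.27, and Tfpi2, Gngt1 and Gng11 had no row. In position, Asb4 at 1.25 per kb lay between Pon2 at 83.6 and Pdk4 at 143.

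**Figure D3:**
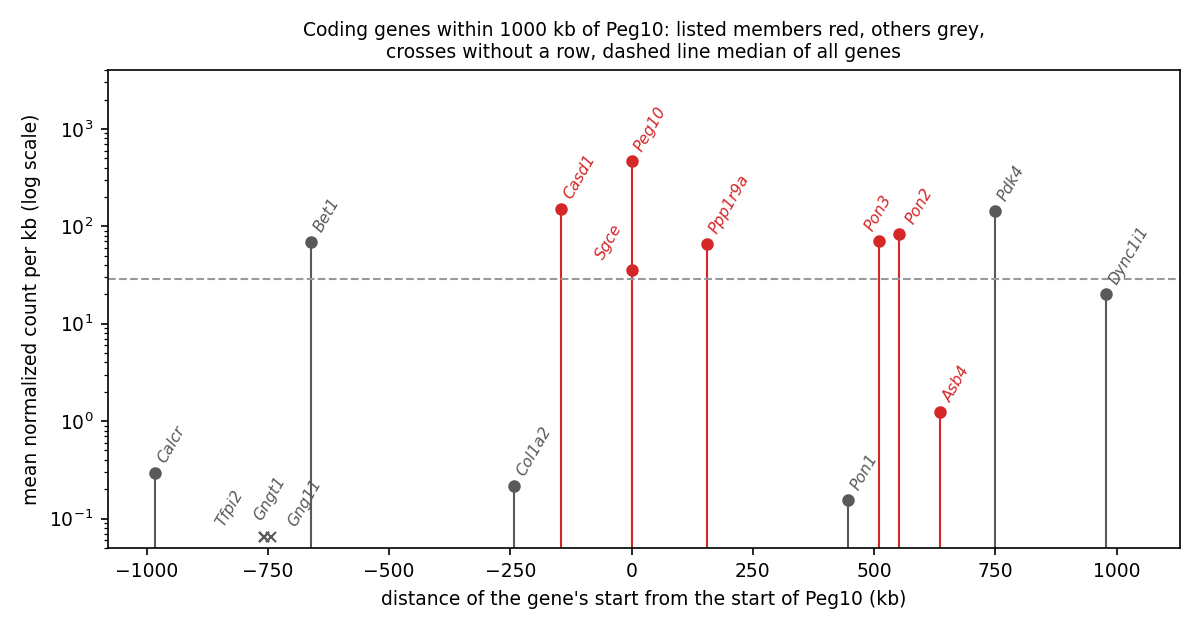
Coding genes within 1000 kb of the start of Peg10, by the distance of their start in kb (horizontal) and their mean normalized count per kb over all 6 samples (vertical, log scale), with members in red, other genes in grey and crosses for genes without a row. Peg10 at 468 is the highest point, and Asb4 at 1.25 the lowest member.

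Of the 11 listed genes around Mest that are reported here, 6 had a row, each with a mean of at least 10, and 5 had none. Per kb they ranged from 56.9 for Mkln1 to 212 for Ube2h, with Cep41 at 59.3, Nrf1 at 87.9, Tmem209 at 141 and Zc3hc1 at 155. Mest, at 27.6, was below these 6, but Strip2 at 21.2 and Ssmem1 at 1.68, which are not on the list and were singled out after their values were seen, were lower within 1000 kb. Copg2, at 107, was between Nrf1 and Tmem209. The carboxypeptidase genes Cpa1, Cpa4 and Cpa5, Tsga13 and Klf14, a maternally expressed transcription factor gene, had no row. In the other imprinted domain of chromosome 6, Herc3 was at 97.2 per kb and Nap1l5, a paternally expressed gene inside it, had no row.

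**Figure D4:**
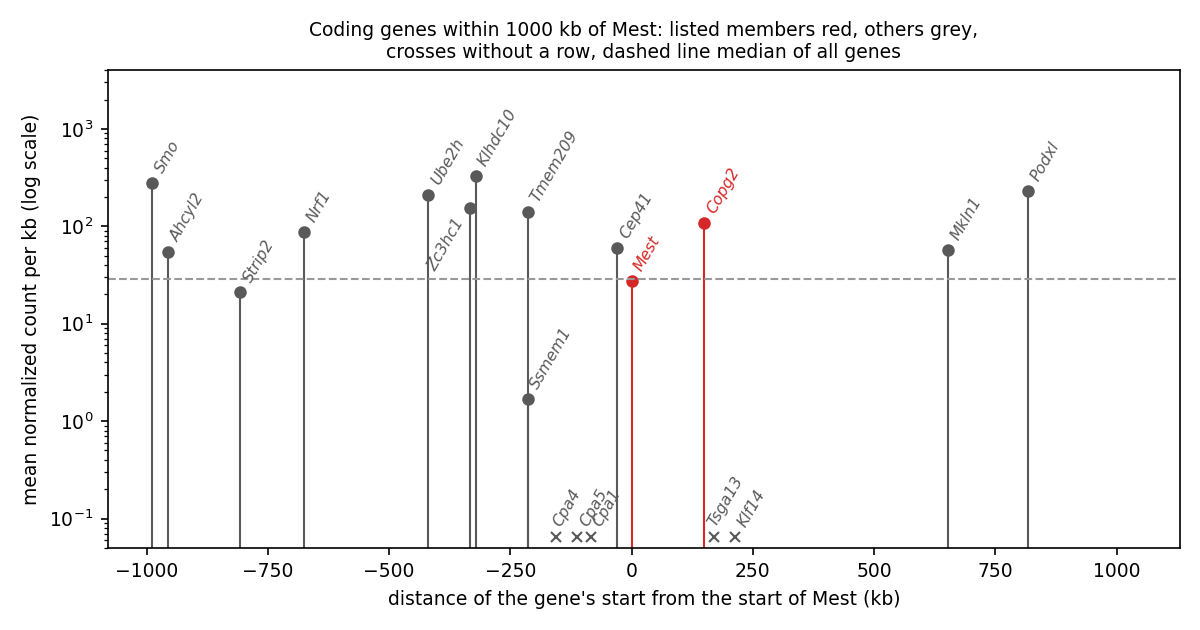
Coding genes within 1000 kb of the start of Mest, by the distance of their start in kb (horizontal) and their mean normalized count per kb over all 6 samples (vertical, log scale), with members in red, other genes in grey and crosses for genes without a row. The map leaves out 1 gene that is not reported here. Mest at 27.6 lies close to the dashed median of all genes (28.6), and Copg2 lies at 107.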

How the data were processed

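RNA of 3 Pkd1-/- and 3 wild type samples, grouped by their titles, was depleted of ribosomal RNA and sequenced in pairs of 42-base reads. Trimming by the authors used Trim Galore 0.4.5, alignment to GRCm39 with the annotation of Ensembl 105 used STAR 2.7.5a, gene counts came from HTSeq 0.11.0, and the authors normalized and compared these with DESeq2 1.22.0 in R 3.5.3. The deposited mean normalized count is a signal, the authors' mean over all samples of counts divided by size factors. The other 5 numeric columns hold the authors' comparison of the genotypes (log2 fold change, its standard error, test statistic, p-value and adjusted p-value) and were not used. The methods state a minimum count per gene and sample, but the lowest mean in the table is 0.618. Per-sample values were not used here, which leaves the depth of each library and its precision unknown, and the test written for values of single samples was not run.

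Each mean was divided by the gene's length and ranked among all genes. Lengths, starts and shared bases were taken from GENCODE release M39 on GRCm39, another annotation than the Ensembl 105 one of the counts. In that release 20122 identifiers (97.6%) were found. Scripts were tested on simulated data. The genes named were the 9 members, the listed genes of both regions, of the other imprinted domain of chromosome 6 and of the polycystins, the cell type markers, and the 3 chromosome 6 genes nearest to each member in level per kb. Of the listed genes and markers, 2 are not reported here. Members and lists were chosen with earlier results of these data known. Alternatives were other lengths, other sets for ranking, other distances and other minimum means. A comparison of promoter CpG content with level was also computed after the data were seen, and was set aside as void because too few genes had a promoter listed. The exons of each member were checked for uniqueness with exact words of 42 bases. The share that occurred once was lowest for Pon2, at 96.7%. Some words of Ppp1r9a, Pon2 and Copg2 had up to 336554 copies. Python 3.11.15, numpy 2.4.6, pandas 2.3.3 and matplotlib 3.10.9 were used.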

Additional observations from a re-analysis of the deposited data

How the results depend on the processing

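No paired analysis was possible because only a mean over all samples was analysed, although the titles number the samples 1 to 3 in each genotype. For the same reason the planned tests between genotypes were not run, nor their alternatives: edgeR and DESeq2 normalization, limma with another pseudocount, no filter on low counts, leaving out each replicate, and the replicate number as a block. None of the values has an error, so a change is any difference in the printed value. The median level of the members was 70.2 per kb of merged exons, 119 with the longest transcript and 246 with the median coding transcript. The ratio of Peg10 to Sgce went from 13 to 4.21 and 3.8 under these lengths, and that of Mest to Copg2 from 0.256 to 0.298 and 0.326, or 0.321 without shared bases. The lengths of these ratios, and the length without shared bases, were added after seeing the data. Pon3, not Peg10, was highest per kb of the median coding transcript, and Pon2 over Pon3 turned from 1.19 to 0.513. The median percentile of the members by mean normalized count was 78.6 among all genes, 68.3 among those whose mean reached 10 (Asb4 left out), 67.5 among coding genes whose mean reached 1, 63.4 per kb, and 49.2 per kb among coding genes, a set added after seeing the data. Neighbours with a mean of at least 10 numbered 15 within 1000 kb, 7 within 500 kb and 33 within 2000 kb, as the number of annotated genes changed from 28 to 16 and 56. Within 1000 kb, 18 had a mean of at least 1 and 15 a mean of at least 100. The count of members whose promoter was above the median CpG count, taken from the most CpG-rich or the most CpG-poor start, was computed after seeing the data and is not reported, since 7 of 9 members and 57.6% of the genes of the table had a promoter listed and the check was void.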
